A study of Homo sapiens with 6 samples.

Results

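Ferritin messenger RNA was lower, and transferrin receptor messenger RNA higher, in THP-1 cells that carried a hairpin against GOT1. The genes described here are 10 central genes of cellular iron handling, taken from the expression table by name: FTH1, FTL, TFRC, NCOA4, SLC40A1, IREB2, ACO1, FBXL5, HMOX1 and SLC11A2. All 10 were found among the 20263 genes of the table, and all 10 passed the filter on low counts and were tested. THP-1 is a cell line with features of monocytes, grown from the blood of a patient with acute myeloid leukaemia. The comparison sets 3 libraries with a GOT1 knockdown (shGOT1, also labelled T-91) against 3 libraries with a control hairpin (shNC, genotype given as wt), both in THP-1, and the series title is about ferroptosis, an iron-dependent form of cell death. The labels name no further GOT1 hairpin and no rescue, so loss of GOT1 and other effects of the hairpin cannot be told apart, and they do not say whether the replicates were separate cultures, so each p-value measures only the spread between libraries, which may be technical.

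Cells take up iron bound to transferrin through the transferrin receptor, move it out of endosomes through a divalent metal transporter, store the surplus inside ferritin shells, and export it through ferroportin. Iron regulatory proteins sense a shortage: they bind a hairpin called the iron-responsive element in certain mRNAs, where they block translation if it lies in the 5′ untranslated region (UTR), as in ferritin, and stabilise the mRNA if it lies in the 3′ UTR, as in the transferrin receptor. Monocytes and macrophages handle much iron because they recycle it from haem. The values below are mRNA levels, so control of ferritin translation by this hairpin is not measured by them.

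The iron-responsive elements of the 10 genes are shown because ferritin and transferrin receptor mRNAs are known to carry them at opposite ends. Of the genes with a match in the 5′ UTR, FTH1 (log2 fold change -0.88) and FTL (-0.89) fell and SLC40A1 (1.02) rose. TFRC, with matches in the 3′ UTR, rose (0.92). The part of these elements in the mRNA changes was not tested. The search pattern was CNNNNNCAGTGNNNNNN on the transcript strand, with the 5 bases after the first C required to pair with the last 5 (A with T, G with C or G with T), in protein-coding transcripts of GENCODE release 29 (GRCh38). It matched in 291 of 19684 protein-coding genes (1.48%) and in 4 of the 10 genes. A match describes letters and is not by itself a working element, and for the other 6 genes these letters were not found in the transcripts searched. The capitals mark the 6-base loop.
FTH1, 5′ UTR, chr11:61967580-61967596, minus strand: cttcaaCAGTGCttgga
FTL, 5′ UTR, chr19:48965341-48965357, plus strand: cttcaaCAGTGTttgga
SLC40A1, 5′ UTR, chr2:189580667-189580683, minus strand: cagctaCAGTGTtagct
TFRC, 3′ UTR, chr3:196050469-196050485, minus strand: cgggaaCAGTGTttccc
TFRC, 3′ UTR, chr3:196050516-196050532, minus strand: cggagaCAGTGAtctcc
TFRC, 3′ UTR, chr3:196050581-196050597, minus strand: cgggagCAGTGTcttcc
TFRC, 3′ UTR, chr3:196050985-196051001, minus strand: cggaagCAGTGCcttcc
The sites of the ferritin chains differ at 1 of 17 bases, and TFRC holds 4 matches within its 3′ UTR.

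The total count per library was between 26226977 and 39144890, and the targeted gene was low in each knockdown library (GOT1 at 2.87 to 3.33 TPM against 15.3 to 16.7 TPM). Levels are given in TPM as deposited, a unit scaled to transcript length and library depth, so that levels of different genes can be compared. Changes are log2 fold changes of shGOT1 over shNC fitted to the counts by edgeR (quasi-likelihood). Each has its standard error (SE) and a p adjusted over 13735 genes by the Benjamini-Hochberg method, with a threshold of 0.05. Many genes differed between the groups: 44.6% of all genes tested passed, 21.9% higher and 22.8% lower in shGOT1, and for 55.2% all TPM of one group lay above all of the other. Of the passing genes 49.0% were higher, and with limma on log2(TPM + 1) 66.4% were. The 9 markers of THP-1 cells were all detected in both groups, with 6 lower and 2 higher in shGOT1, and the listed markers of monocyte and macrophage differentiation fell, 14 of 19 tested being lower and 2 higher. Their summed level was 1791 to 1823 TPM in shGOT1 and 4582 to 4813 TPM in shNC, none of the 20 was at 0 in all libraries, and their part in the changes of the iron genes was not tested. In bulk RNA, fewer cells of a kind and less RNA per cell cannot be told apart. Of 12 markers of other blood lineages, 4 had no count in any library, CD3E, MS4A1 and PF4 among them, and 5 were tested, of which 2, the B cell marker CD79A among them, were higher in shGOT1 and none was lower with edgeR (3 of the 5 had an unadjusted p under 0.05, and DESeq2 called 1). The 5 tested genes had a median log2 fold change of -0.14. This list summed to 114 to 119 TPM in shGOT1 and 107 to 115 TPM in shNC. Of 8 markers of cells outside the blood, EPCAM and COL1A2 had no count and 6 were tested, with KRT8 and COL1A1 higher and KRT18 lower, and the list summed to 99.0 to 105 TPM and 101 to 104 TPM. The part of these markers in the changes of the iron genes was not tested.

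Of the 10 genes, 3 were higher, 5 lower and 2 not past the threshold. So 8 of 10 (80.0%) passed, where 44.6% of all genes did. The 10 genes were chosen with earlier results of these data known, so their shares are not a test of iron genes as a set. The calls of IREB2 and NCOA4 were lost under some alternatives, given below. The ferritin chains and HMOX1 fell by almost equal amounts, SLC11A2 fell less, TFRC and SLC40A1 rose, and the changes of NCOA4 and IREB2 were small. The median log2 fold change of the 10 genes was -0.09, and that of all genes tested was 0.0045. In 8 of the 10 genes all TPM of one group lay above all of the other, against 55.2% of all genes, and the exceptions were IREB2 and ACO1.

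**Figure D1:**
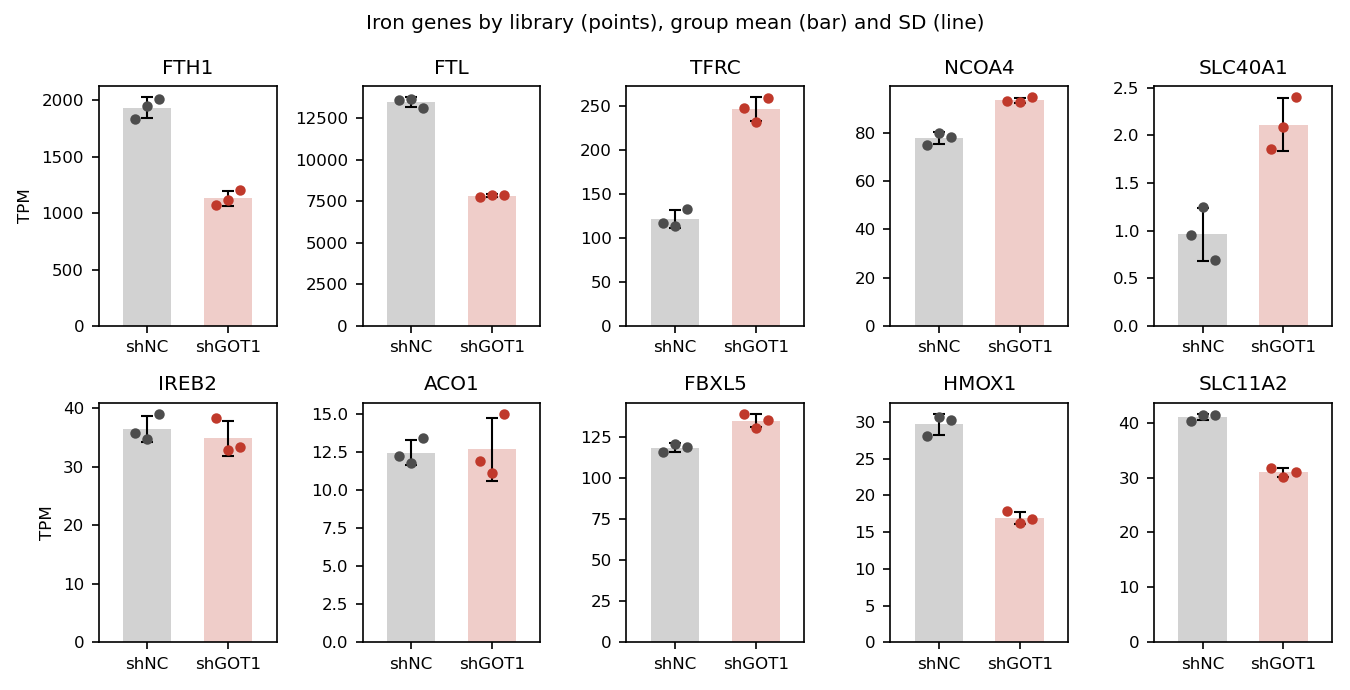
Level of each of the 10 iron genes in TPM (vertical axes, from 0) in the 3 shNC and 3 shGOT1 libraries; points are libraries, bars are group means and lines are SD. The ferritin genes FTH1 and FTL, HMOX1 and SLC11A2 are lower in every shGOT1 library, and TFRC and SLC40A1 are higher in every one, while the points of IREB2 and ACO1 overlap.

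Ferritin, the iron store, is a shell of heavy and light chains, of which the heavy chain FTH1 oxidises iron and the light chain FTL promotes its mineral core. FTL (ENSG00000087086, chromosome 19, 48965301 to 48966878, plus strand) stood at 7739, 7888 and 7855 TPM in the knockdown libraries and at 13591, 13636 and 13119.6 TPM in the shNC libraries. Every knockdown library lay below every control library. In the count fit FTL was 1.85-fold lower, a log2 fold change of -0.89 with an SE of 0.0213 (edgeR adjusted p = 5.09e-06). The ratio of mean TPM was -0.78 on the log2 scale. By TPM it held rank 4 of all 20263 genes in each shNC library and rank 9 in each shGOT1 library.

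FTH1 (ENSG00000167996) lies on the minus strand of chromosome 11, 61959718 to 61967660, and stood at 1075, 1116 and 1207 TPM with the GOT1 hairpin and 1834, 1953 and 2017 TPM with the control hairpin. The groups did not overlap. In the count fit FTH1 fell 1.84-fold, by 0.88 on the log2 scale (SE 0.0479, edgeR adjusted p = 5.12e-05), and the log2 ratio of mean TPM was -0.77. Exons of FTH1 overlap exons of BEST1 on the opposite strand, and whether counting used the strand is not given in the sources used here. BEST1 had 736 to 1168 counts per library where FTH1 had 12801 to 26446. GENCODE release 29 also names 25 FTH1 and 16 FTL pseudogenes, none of which has a row in the table, so the values may hold reads from such near-identical copies and are uncertain to that extent.

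The log2 fold changes of the 2 chains differed by less than either SE. FTH1 and FTL made up 0.881, 0.900 and 0.906% of all TPM in the shGOT1 libraries and 1.54, 1.56 and 1.51% in the shNC libraries, a mean of 0.896 ± 0.0129% against 1.54 ± 0.0229% (SD, n = 3). The ratio of FTH1 to FTL within a library, which does not depend on the scaling of libraries, was 0.139, 0.141 and 0.154 with the GOT1 hairpin and 0.135, 0.143 and 0.154 with the control. The ranges lie over each other, and the exact 2-sided permutation test gave p = 1.0, where 0.1 is the smallest p that 3 libraries against 3 allow. Between any knockdown and any control library the ratio differed by a factor of 0.903 to 1.14, so a difference in the balance of the chains within that range cannot be told from the spread.

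NCOA4 encodes the receptor that carries ferritin to the lysosome, where its iron is released. NCOA4 (ENSG00000266412, chromosome 10, 46005088 to 46030714, minus strand) was at 93.0, 92.7 and 94.6 TPM in shGOT1 and at 74.96, 80.1 and 78.1 TPM in shNC, which do not overlap. In the count fit the difference was small, with a log2 fold change of 0.15 (SE 0.0374, edgeR adjusted p = 0.0181), and the ratio of mean TPM was 0.27 on the log2 scale. NCOA4 missed the threshold when shGOT1 replicate 2 was left out (0.15, edgeR adjusted p = 0.0557), as it did on leaving out shGOT1 replicate 3 (0.14, 0.0573) or shNC replicate 3 (0.15, 0.0540). Among its 17 tested neighbours within 2 Mb, 10 (58.8%) were higher, where 21.9% of all genes were, and 1 was lower. Their median log2 fold change was 0.29.

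TFRC encodes the transferrin receptor, the main entry route of iron. TFRC (ENSG00000072274) is on the minus strand of chromosome 3 from 196027183 to 196082189. Its level was 247, 232 and 259 TPM in the knockdown libraries and 117, 114 and 133 TPM in the controls. Each knockdown library was well above each control library, and TFRC was 1.89-fold higher (log2 fold change 0.92, SE 0.0611, edgeR adjusted p = 0.000105). In shNC its level overlapped that of FBXL5, and in shGOT1 it stood clear above it.

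Genes around TFRC were higher in shGOT1 as well. Of 38 tested genes that start within 2 Mb of it, 25 (65.8%) were higher, where 21.9% of all genes were, and none passed as lower with edgeR or DESeq2 (1 was lower at an unadjusted p under 0.05). Their median log2 fold change was 0.36, and TFRC stood 0.56 above that median. Of these neighbours, 3 had a log2 fold change at or above that of TFRC, namely HES1 (1.48), a Notch-responsive transcriptional repressor, SLC51A (1.36), a steroid transporter subunit, and MELTF (0.96), which encodes the iron-binding protein melanotransferrin. The read-through gene TM4SF19-TCTEX1D2 had the lowest value (-1.16, edgeR adjusted p = 0.421) and did not pass. These genes were named after their values were seen. The part of the neighbourhood in the change of TFRC was not tested.

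**Figure D2:**
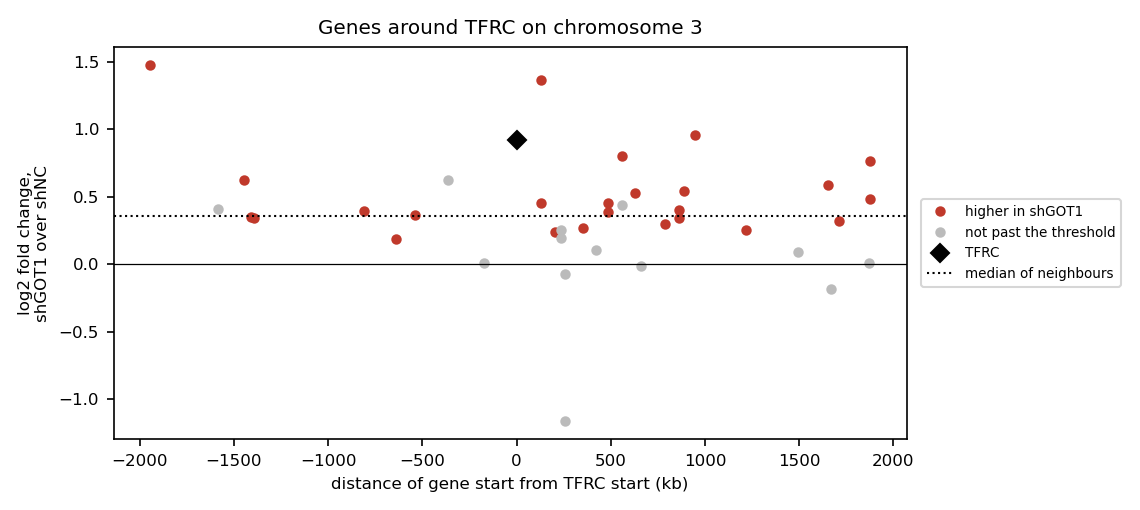
Log2 fold change, shGOT1 over shNC (vertical axis), of the 38 tested genes around TFRC against the distance of their start from the TFRC start in kb (horizontal axis). Red points passed as higher, grey points did not pass, the diamond is TFRC at 0.92 and the dotted line is the neighbours' median of 0.36; most points lie above 0.

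SLC11A2, the divalent metal transporter DMT1, moves iron from the endosome into the cytosol, and one of its known mRNA forms has an iron-responsive element in the 3′ UTR. SLC11A2 (ENSG00000110911, chromosome 12, 50979401 to 51028566, minus strand) read 31.7, 30.2 and 30.9 TPM in shGOT1 and 40.3, 41.4 and 41.3 TPM in shNC, so it was lower in every knockdown library, opposite in direction to TFRC. It fell by 0.45 on the log2 scale (SE 0.0401, edgeR adjusted p = 0.000314). The table gives 1 value per gene, so forms with and without the element are not told apart.

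SLC40A1 encodes ferroportin, the only known iron exporter of human cells. SLC40A1 (ENSG00000138449, chromosome 2, 189560579 to 189583758, minus strand) was the lowest of the 10 genes, at 1.85, 2.09 and 2.40 TPM in shGOT1 and 0.955, 1.24 and 0.689 TPM in shNC, from counts of 92, 122 and 173 against 48, 68 and 38. The groups did not overlap, but the control libraries varied by 28.8% of their mean. It rose by 1.02 on the log2 scale, with an SE of 0.235 and a 95% interval of 0.45 to 1.59 (edgeR adjusted p = 0.0141). None of its 15 tested neighbours within 2 Mb changed as much. Of them 5 (33.3%) were higher, where 21.9% of all genes were, and 1 was lower, with a median of 0.26. With a pseudocount of 5 TPM, which shrinks the change of so low a gene, limma gave 0.25.

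HMOX1 encodes the inducible haem oxygenase, which opens the haem ring and sets iron free. HMOX1 (ENSG00000100292, chromosome 22, 35380361 to 35394214, plus strand) was at 17.9, 16.2 and 16.8 TPM in shGOT1 and at 28.05, 30.7 and 30.2 TPM in shNC. No knockdown library reached the lowest control library. In the count fit HMOX1 fell 1.88-fold, by 0.91 on the log2 scale (SE 0.0634, edgeR adjusted p = 0.000125), and the log2 ratio of mean TPM was -0.81. Changes of at least the size of that of HMOX1 or of either ferritin chain were met in 10.1 to 10.6% of all genes tested. Within 2 Mb of FTH1, 21 of 77 tested neighbours were lower and 13 higher, and of FTL 38 of 109 and 20. Within 2 Mb of HMOX1 9 of 27 were lower and 6 higher, and of SLC11A2 9 of 47 and 4. Of all genes tested 22.8% were lower and 21.9% higher. The part of these neighbourhoods was not tested.

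The genes of the iron sensors moved little. IREB2 encodes IRP2, which is degraded when iron is plentiful, and ACO1 encodes IRP1, which is an aconitase when it holds an iron-sulfur cluster. IREB2 (ENSG00000136381, chromosome 15, 78437431 to 78501456, plus strand) had 38.3, 32.9 and 33.3 TPM in shGOT1 and 35.7, 34.6 and 38.99 TPM in shNC, which overlap. Its CPM, counts scaled to library depth by edgeR, were 101, 103 and 101 against 120, 111 and 107, which do not, and the fit gave -0.15 (SE 0.0476, edgeR adjusted p = 0.0474). The fall of IREB2 did not hold up: it missed the threshold in 13 of 18 alternatives, among them leaving out shGOT1 replicate 1 (-0.15, edgeR adjusted p = 0.110), shGOT1 replicate 2 (-0.16, 0.0887), shGOT1 replicate 3 (-0.15, 0.110), shNC replicate 1 (-0.10, 0.0870) or shNC replicate 2 (-0.16, 0.0888).

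ACO1 (ENSG00000122729, chromosome 9, 32384603 to 32454769, plus strand) had 11.9, 11.1 and 14.999 TPM in shGOT1 and 12.2, 11.8 and 13.4 TPM in shNC. The groups overlap in both units, and the log2 fold change was -0.04 with a 95% interval of -0.17 to 0.09 (edgeR adjusted p = 0.599). In shGOT1 the replicates varied by 16.2% of the mean in TPM and by 4.27% in CPM, and IREB2 by 8.66% and 0.876%. In that group the deposited TPM of these genes thus varied more than the counts behind them. In shNC ACO1 varied by 6.74% in TPM and 4.00% in CPM, and IREB2 by 6.23% and 5.97%, which are nearly equal. The ratio of IREB2 to ACO1 in TPM was 3.21, 2.97 and 2.22 with the GOT1 hairpin and 2.92, 2.94 and 2.91 with the control (exact permutation p = 1.0, 2-sided). The low TPM ratio came from shGOT1 replicate 3, and without it the difference of the mean log2 ratio went from -0.08 to 0.08. In counts the ratio was 2.87, 2.97 and 2.69 against 3.41, 3.00 and 2.80 (exact permutation p = 0.4, 2-sided). There shGOT1 replicate 3 stood less apart, and the control libraries spread more widely than in TPM.

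FBXL5 is the iron-binding subunit of the ubiquitin ligase that marks the iron regulatory proteins for degradation. FBXL5 (ENSG00000118564, chromosome 4, 15604539 to 15681619, minus strand) stood at 139, 131 and 136 TPM in shGOT1 and 116, 121 and 119 TPM in shNC, which do not overlap, while its CPM, at 124, 122 and 121 against 123, 125 and 123, do. The log2 fold change from counts was -0.01 (95% interval -0.07 to 0.05, edgeR adjusted p = 0.749). On log2(TPM + 1) limma gave 0.19 (adjusted p = 0.00859), and with the TPM first rescaled by the median of ratios it gave 0.08 (adjusted p = 0.111), so neither a direction nor a call holds across units. The median log2 ratio of mean TPM over tested genes with at least 5 TPM was 0.10.

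**Figure D3:**
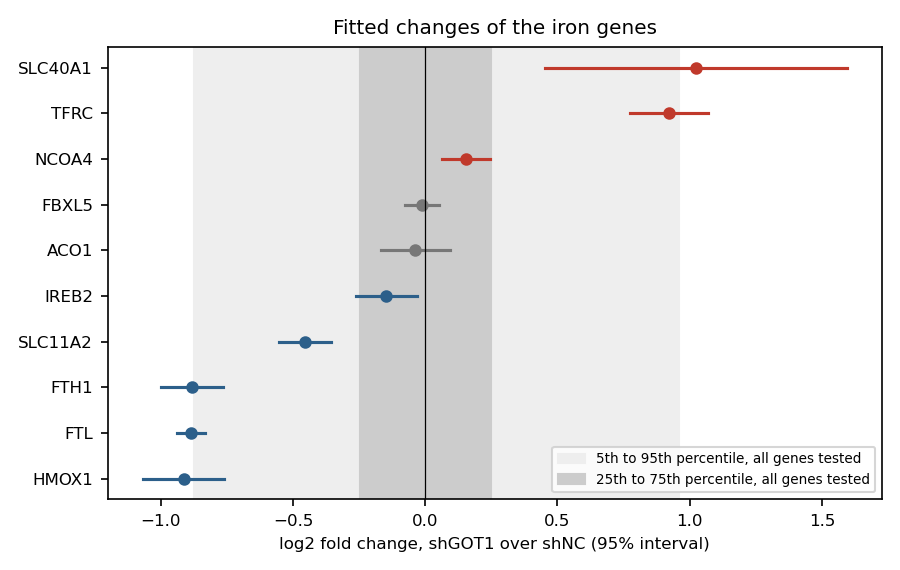
Fitted log2 fold change, shGOT1 over shNC (horizontal axis), of the 10 iron genes with its 95% interval; red passed as higher, blue as lower, grey did not pass, and the shaded bands span the 5th to 95th and the 25th to 75th percentile of all genes tested. FTH1, FTL and HMOX1 lie at about -0.9, TFRC and SLC40A1 near 0.9 to 1.0, and ACO1 and FBXL5 at 0.

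The uptake receptor shifted further when set against storage, since the genes moved in opposite directions. The TPM ratio of TFRC to FTH1 was 0.230, 0.208 and 0.214 in the knockdown libraries and 0.0637, 0.0582 and 0.0657 in the controls. The groups are far apart, with mean ratios of 0.217 ± 0.0112 and 0.0625 ± 0.00389 (SD, n = 3), which is 3.47-fold. The exact permutation test gave p = 0.1, the smallest this design allows. Any pairing of a knockdown with a control library gave a factor of 3.16 to 3.94.

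**Figure D4:**
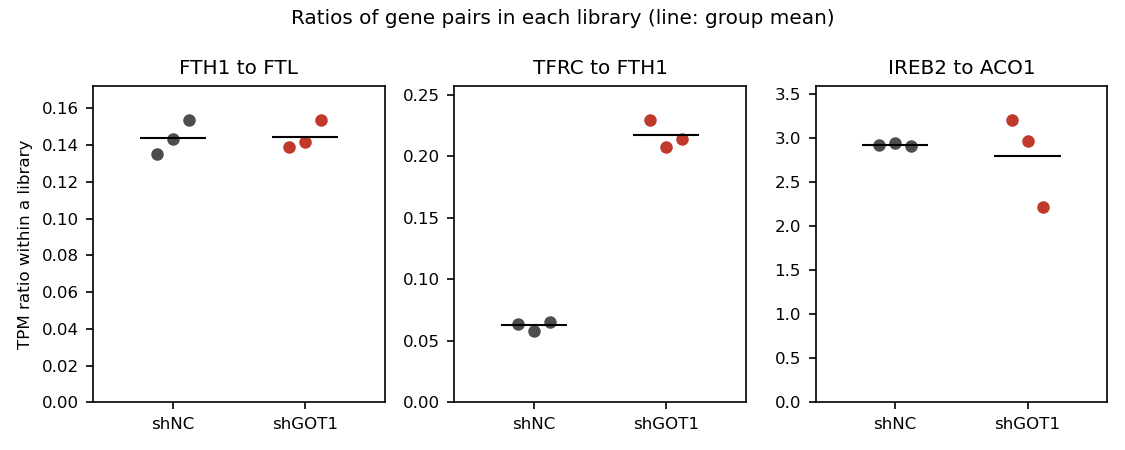
TPM ratios of 3 gene pairs within each library (vertical axes, from 0); points are libraries and lines are group means. The ratio of TFRC to FTH1 lies at 0.208 to 0.230 in shGOT1 and 0.0582 to 0.0657 in shNC, while the ratio of FTH1 to FTL covers the same range in both groups and that of IREB2 to ACO1 overlaps.

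By length-scaled level the order in shNC was FTL, FTH1, TFRC, FBXL5, NCOA4, SLC11A2, IREB2, HMOX1, ACO1 and SLC40A1, and TFRC and FBXL5 were the neighbours whose replicates overlapped. In shGOT1 no neighbours overlapped, and IREB2 stood above SLC11A2. For FTH1, FTL, TFRC and HMOX1 the genes of most similar pattern were sought by the mean absolute difference of centred log2 CPM over the 6 libraries, among 9839 named genes whose mean reached 5 TPM. They were ELOA, LPAR6 and PNRC2 for FTH1 (differences of 0.01 to 0.03), KCNAB2, SLC27A3 and AGRN for FTL (0.02), YES1, RTL8B and SEL1L3 for TFRC (0.03 to 0.04) and GCNT1, GNB1 and TNFRSF1B for HMOX1 (0.04). Genes picked in this way share the difference between the groups, so the list does not show a link between them. Of these 12 genes 7 lie on chromosome 1. The share of that chromosome among the genes compared was not counted, so no result about location is drawn from it.

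Beyond the 10 genes, 112 others of iron and haem handling in 10 lists were found in the table and 100 were tested. Of those 13 were higher, 19 lower and 68 not past the threshold, so 32.0% passed, against 44.6% of all genes, with a median log2 fold change of -0.04. In iron uptake and reduction, 3 of 14 tested genes were higher and 4 lower (median 0.0025). SLC39A14, a zinc transporter that also carries iron not bound to transferrin, stood at 55.5 ± 4.02 TPM in shGOT1 and 27.9 ± 0.594 TPM in shNC and rose by 0.84 on the log2 scale (edgeR adjusted p = 0.000194, n = 3 per group). The endocytic receptor LRP1 fell (-0.99), as did CD163, the haemoglobin scavenger receptor of macrophages (-0.67), and TF, the gene of transferrin, fell at a low level (-1.06, from 0.680 ± 0.0411 to 0.395 ± 0.139 TPM). The ferrireductase gene STEAP3 (0.51) and SLC11A1 (0.23, edgeR adjusted p = 0.0297), a metal transporter of phagosomes, rose, and the lysosomal channel gene MCOLN1 (-0.49) fell. The TPM of SLC11A1 overlapped between the groups, at 14.2 to 16.5 in shGOT1 and 12.2 to 15.4 in shNC, while its CPM did not. LRP1 overlaps STAT6 and CD163 overlaps CD163L1 in the table, so their values are uncertain.

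In storage, iron chaperones and ferritinophagy, 1 of 10 tested genes was higher and 3 lower (median -0.07). The autophagy gene ATG16L1 rose (0.35), and the iron chaperone PCBP2 (-0.28), the autophagy receptor TAX1BP1 (-0.24) and HERC2 (-0.23), a ubiquitin ligase that acts on NCOA4, fell. PCBP2 overlaps MAP3K12 and TAX1BP1 overlaps JAZF1. Of the list on export and hepcidin, 4 of 9 genes in the table were tested and 0 passed with edgeR or with DESeq2, and 0 had an unadjusted p under 0.05. All but RNF217 of that list were under 1 TPM in every library. Without shNC replicate 2 there was 1 call in it.

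Of 9 genes that control the iron regulatory proteins, 2 were lower, the ligase subunit RBX1 (-0.25) and the iron-sulfur targeting factor MMS19 (-0.23), and none was higher with edgeR (median -0.08). At an unadjusted p under 0.05 there were 4, DESeq2 called 3, and without shGOT1 replicate 2 edgeR called 4. Of 4 tested mRNAs besides the 10 genes with a known iron-responsive element, the kinase gene CDC42BPA rose by 2.02 on the log2 scale at a low level, 1.14 ± 0.368 TPM in shGOT1 and 0.216 ± 0.0644 TPM in shNC (SE 0.213, edgeR adjusted p = 0.00063). CDC14A (0.0084, edgeR adjusted p = 0.926) and EPAS1 (-0.13, 0.592) did not pass. The pattern above matched in the 3′ UTR of CDC14A.

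In haem synthesis 1 of 13 tested genes was higher and 1 lower (median -0.01). ALAS1, the first enzyme of the pathway, rose from 180.3 ± 1.10 to 225 ± 4.11 TPM (0.24), and UROD, uroporphyrinogen decarboxylase, fell from 121 ± 5.79 to 80.1 ± 6.37 TPM (-0.70). In haem transport and breakdown 2 of 8 were higher and 2 lower (median -0.22). Of the biliverdin reductases, BLVRB fell (-0.77) and BLVRA was slightly higher (0.12, edgeR adjusted p = 0.0321). The haem-binding membrane protein gene PGRMC1 rose (0.51), and the transporter gene FLVCR2 fell (-0.49). The list held 1 higher gene in place of 2 with DESeq2, and also on leaving out any library. With limma it held 2 in every setting, so the rise of BLVRA is uncertain. The count of this list went from 4 to 2 without shGOT1 replicate 1, shGOT1 replicate 3, shNC replicate 1 or shNC replicate 3, and with DESeq2, and to 3 without either other library.

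In mitochondrial iron import and iron-sulfur assembly 5 of 23 genes were higher and 3 lower (median -0.04). SLC25A37, the mitochondrial iron carrier mitoferrin-1, stood at 57.3 ± 1.35 TPM in shGOT1 and 85.6 ± 0.995 TPM in shNC, a fall of 0.60 on the log2 scale (edgeR adjusted p = 0.000126, n = 3 per group). The assembly factors BOLA3 (0.52) and ISCA1 (0.37) rose, and FDXR, the ferredoxin reductase, fell (-0.51). In cytosolic iron-sulfur assembly 2 of 8 were lower and 0 higher with edgeR (median -0.02), DESeq2 called 2 higher and 1 lower, and 5 had an unadjusted p under 0.05. The lower genes were MMS19 and NUBP1 (-0.19). MMS19 also stands in the list on iron regulatory proteins, and the count fell to 1 without shGOT1 replicate 3, shNC replicate 1 or shNC replicate 2.

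Of 13 transcription factors known to act on ferritin, haem oxygenase or transferrin receptor genes, 3 were lower and 0 higher with edgeR (median -0.09), and the same number passed with DESeq2 and at an unadjusted p under 0.05. BACH1, a haem-sensing repressor of HMOX1 and the ferritin genes, was at 11.6 ± 0.963 TPM in shGOT1 and 19.4 ± 1.36 TPM in shNC, a fall of 0.81 on the log2 scale (edgeR adjusted p = 9.93e-05, n = 3 per group). NFE2L2, which encodes the activator NRF2, was at 38.0 ± 3.34 against 44.5 ± 3.02 TPM and fell in the count fit (-0.33), as did ARNT (-0.37), the partner of the hypoxia-inducible factors. BACH1 overlaps GRIK1 and NFE2L2 overlaps AGPS in the table. MYC was at 27.3 ± 11.2 against 17.1 ± 10.2 TPM, and its 95% interval on the log2 scale ran from -0.89 to 1.84 (edgeR adjusted p = 0.535).

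**Figure D5:**
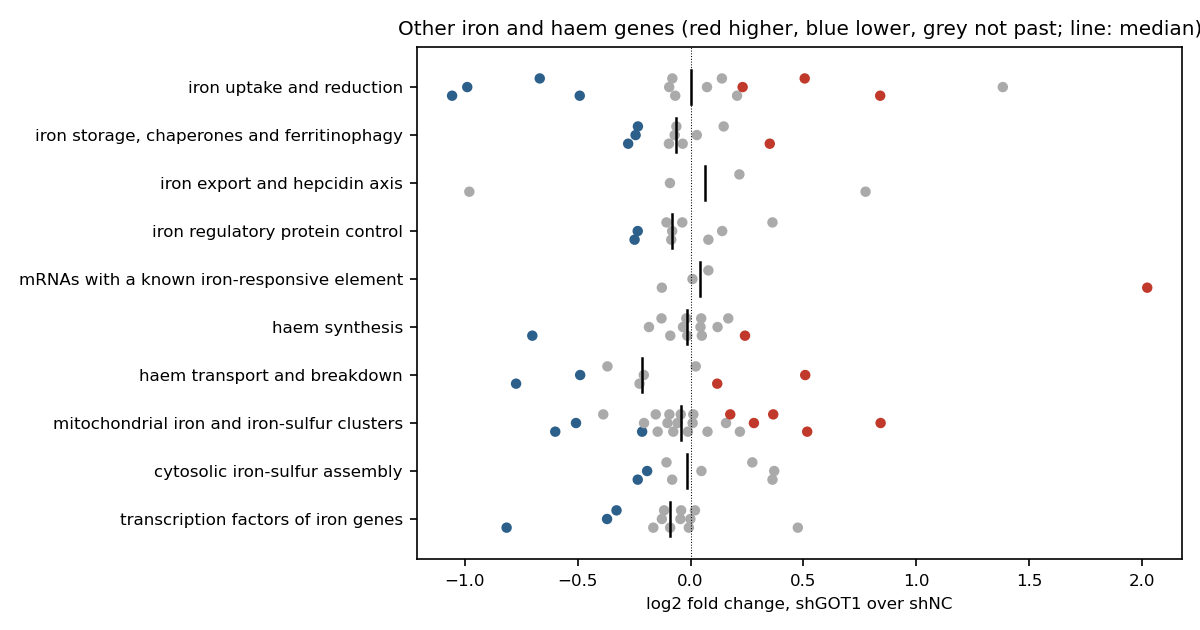
Log2 fold change, shGOT1 over shNC (horizontal axis), of the tested genes of 10 iron and haem lists besides the 10 genes described first; each point is a gene, red passed as higher, blue as lower, grey did not pass, and the line is the list's median. Medians lie between -0.22 and 0.06, with most genes close to 0.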

How the data were processed

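Messenger RNA enriched with oligo(dT) beads was sequenced from 3 shGOT1 and 3 shNC libraries, and 1 table with 20263 genes was used. Its columns were assigned by the library names in the labels. FastQC, Trimmomatic, StringTie and DESeq2 were used, per the submitters' processing notes; the sources used here do not give the aligner, build or strand setting. Whole-number counts were deposited by the authors without normalization. The TPM and FPKM were deposited by the authors, scaled to length and depth. Coordinates are those of the table, and 9 of the 10 genes have identical ones in GENCODE release 29 (GRCh38), FBXL5 being the exception.

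Counts were tested with edgeR 4.0.16 in R 4.3.3 (filterByExpr, TMM, estimateDisp, glmQLFit, glmQLFTest), 2-sided, in 1 fit of all 6 libraries without covariates, with Benjamini-Hochberg adjustment over all genes tested. The SE is the log2 fold change divided by the square root of F. The edgeR steps were first run on simulated counts with a fixed spread and far fewer changed genes than passed here. That run checks the code and does not give the error rate in these data. Ratios within a library were compared with exact permutation tests. The members and the gene lists were chosen with earlier results of these data known, and 173 of 174 list entries were found. Up to 4 genes per list were named, those past the threshold with the largest changes whose TPM do not overlap between groups. Named beyond that rule after their values were seen were HES1, SLC51A, MELTF, TM4SF19-TCTEX1D2, the markers of cell types, STEAP3, SLC11A1, MCOLN1, ARNT, FLVCR2, NUBP1, CDC14A, EPAS1 and MYC. Alternatives were DESeq2 1.42.0, other normalizations and filters, leaving out each library, the replicate number as a block, and limma 3.58.1 on log2 TPM or FPKM. Counting error follows from the total counts, with 3 counts equal to 0.0766 to 0.114 CPM. No pair of replicates agreed within sampling noise (chi-square over its degrees of freedom from 18.2 to 21.5). Some listed genes are not reported here by name.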

Additional observations from a re-analysis of the deposited data

How the results depend on the processing

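Over 24 results and 404 alternative values, 348 kept direction and side of the threshold or stayed within 1.5 times. FTH1, FTL, TFRC, SLC40A1, HMOX1 and SLC11A2 did so under every alternative run. SLC40A1 has no value at a mean of at least 5 TPM. The replicate numbers do not pair the libraries (correlations of same-numbered deviations 0.0282, 0.0089 and -0.0003). With the replicate number as a block 5222 genes passed in place of 6128. IREB2 lost its call (-0.15, adjusted p = 0.0739), haem transport had 2 calls and cytosolic iron-sulfur assembly 1. For these and the values below the cause was not tested.

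Leaving out a library gave 0.12 to 0.19 for NCOA4, -0.19 to -0.10 for IREB2, 0 to 1 calls in export, 2 to 4 in iron regulatory protein control, 2 to 3 in haem transport, 1 to 2 in cytosolic iron-sulfur assembly, log2 ratio differences of -0.0380 to 0.0560 for FTH1 to FTL (-0.0366 without shGOT1 replicate 3) and -0.19 to 0.0771 for IREB2 to ACO1. IREB2 also lost its call without a filter (-0.15), at a mean of at least 5 TPM (-0.13), and with limma on log2(TPM + 1), (TPM + 0.1), (TPM + 5) and (FPKM + 1) and after median-of-ratios (-0.0645, -0.0661, -0.0580, -0.0982 and -0.17). ACO1 turned to 0.0144, 0.0148 and 0.0126 with limma at these 3 pseudocounts. FBXL5 turned to 0.00345 at a mean of at least 5 TPM, and to 0.19, 0.19, 0.18, 0.15 and 0.0800 with limma in the order above. Without a filter, 1 export gene passed and cytosolic assembly had 1 call. At a mean of at least 5 TPM cytosolic assembly had 1 and the iron-responsive element list 0. CDC42BPA, the gene called in the iron-responsive element list, lies below that level and was not in that fit. With DESeq2 haem transport had 2. With limma on TPM the iron-responsive element list had 2 calls at each pseudocount and on FPKM, haem synthesis 4 at each pseudocount, and cytosolic assembly 1, 1 and 0, and 1 on FPKM, where the transcription factor list also had 1. Depth limits SLC40A1 most, with 38 to 173 counts.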
